A study of Mus musculus with 8 samples.

Results

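A set of 10 endothelial genes was followed in RNA from sorted gastric epithelial cells: Pecam1, Cdh5, Kdr, Flt1, Tek, Tie1, Cldn5, Plvap, Emcn and Egfl7. They were chosen by name as markers of blood vessel endothelium, each was found by its mouse gene number, and they make up 10 of the 38920 rows of the deposited tables. All 10 passed the filter on low values and were tested.

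The series compares HFD-fed mice with control mice, as 4 HFD libraries (HFD22, HFD23, HFD26 and HFD27) and 4 control libraries (titled ND15.17.18, ND16, ND19 and ND20). Every library comes from stomach of the C57BL/6 strain, the labelled cell type is gastric epithelial cells in all 8, and no transgene or further treatment is labelled. Total RNA of the sorted cells was freed of ribosomal RNA and sequenced. The sources used here give neither the age and sex of the mice, nor the diets' makeup and duration, nor the sorting gate. Whether a library is 1 mouse is not labelled, and ND15.17.18, with 3 numbers in its title, could be pooled, though no label says so. P-values below therefore measure the spread between these libraries.

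Endothelial cells line blood vessels. They are held together by VE-cadherin (Cdh5), PECAM-1 (Pecam1) and claudin-5 (Cldn5), and they read growth cues through the VEGF receptors (Kdr and Flt1) and the angiopoietin receptor system (Tek and Tie1). In the stomach a dense network of fenestrated capillaries lies close beneath the gland epithelium, and the protein encoded by Plvap forms the diaphragms of such capillaries.

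Depth, estimated from the step that 1 read adds to a value, was between 31.4 and 46.0 M reads for HFD libraries and between 16.4 (ND19) and 63.2 M (ND20) for controls. The libraries do not stand alike. The 20 highest rows took 85.7% of the total in ND15.17.18 and 59.1% in ND19, against 29.0% to 43.1% in the 4 HFD libraries, 27.8% in ND16 and 41.2% in ND20. HFD23 carried the platelet glycoprotein gene Gp1bb at 14.16, against 4.89 to 5.2 in the other HFD libraries. Levels here are log2(value + 1) after scaling each library by the median ratio of its rows, unless the deposited scale is named, and values without single libraries stand beside the results they move. On this scale the median row tested was 0.12 higher in HFD, and on the deposited scale 0.90 higher.

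Beside the epithelial label, 12 epithelial genes were examined, and all were above 0 in all 8 libraries. This alone does not check the label, since 9 of the 10 endothelial markers were above 0 in all 8 too. Summed on the linear scale the epithelial genes reached 143891 to 178521 in HFD and 144427 to 191190 in control libraries. The 10 endothelial markers summed to 1973, 2696, 1947 and 2168 in HFD22, HFD23, HFD26 and HFD27, and to 2491, 1014, 3637 and 1534 in ND15.17.18, ND16, ND19 and ND20. As a share of the epithelial sum this was 1.23% to 1.51% in HFD, against 1.49% in ND15.17.18, 0.577% in ND16, 2.52% in ND19 and 0.802% in ND20. In ND15.17.18, 42.5% of the endothelial sum was Emcn, and without Emcn the share there was 0.860%, against 1.21% to 1.49% in HFD, 0.567% in ND16, 2.46% in ND19 and 0.790% in ND20. The sorted material thus carried a low level of endothelial RNA in every library, similar among the HFD libraries and unequal among the controls. In bulk samples a difference in the number of cells of a type and a difference in RNA per cell cannot be told apart.

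**Figure D1:**
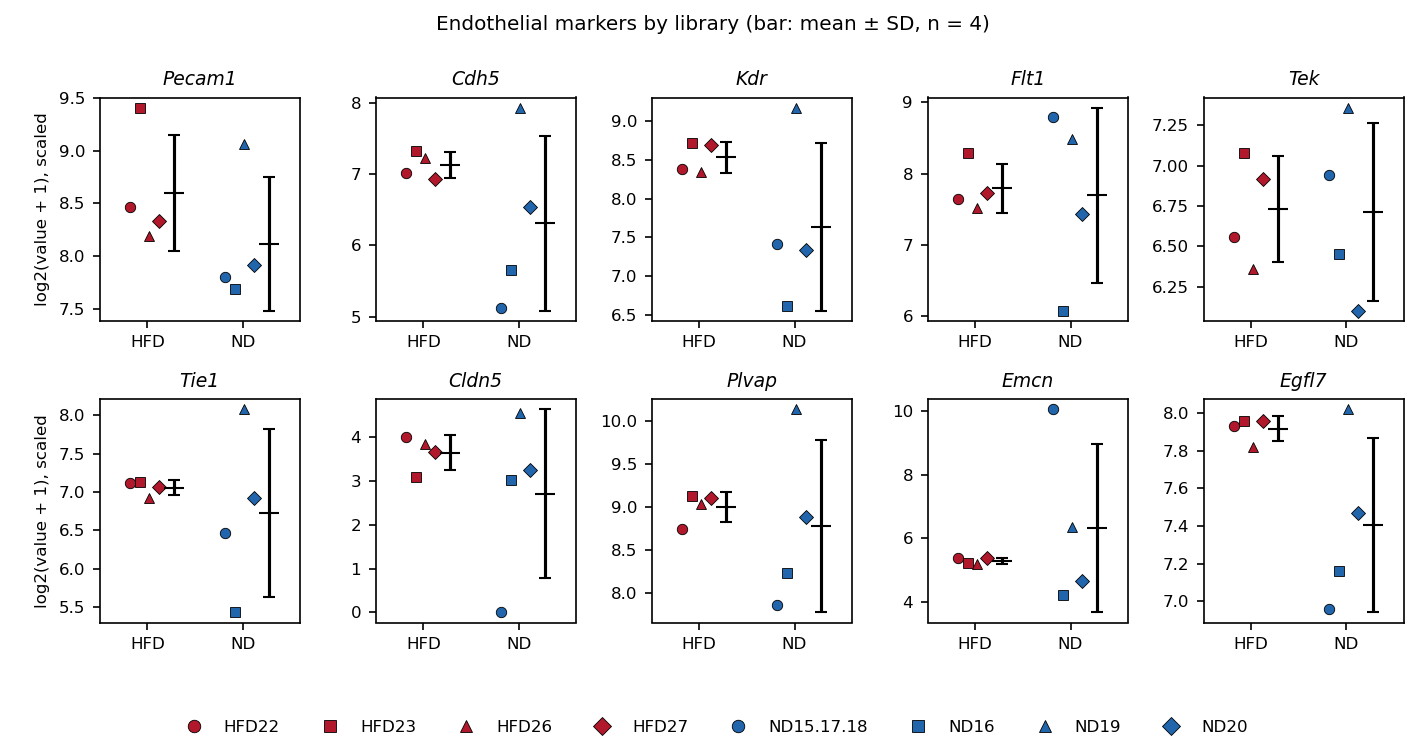
Level of each endothelial marker in each library, as log2(value + 1) after median-ratio scaling, with HFD libraries left of ND libraries in each panel and the horizontal line at the group mean (n = 4 each). The HFD points have a smaller SD than the ND points in each panel, though for Pecam1 the SDs are near, at 0.55 and 0.64. The ND points run from 0.00 to 4.57 for Cldn5 and from 4.24 to 10.05 for Emcn.

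Per kilobase of exon, which allows genes to be compared, Plvap was the highest member, with a log2 level of 8.02 ± 0.17 in HFD and 7.79 ± 1.0 in control libraries (SD, n = 4 each). After it in HFD came Egfl7 at 6.09 ± 0.07, Pecam1 at 5.98 ± 0.55, Kdr at 5.39 ± 0.19, Cdh5 at 5.09 ± 0.18, Tie1 at 4.80 ± 0.09, Tek at 4.54 ± 0.32, Flt1 at 4.11 ± 0.33, Cldn5 at 3.20 ± 0.39 and Emcn at 3.02 ± 0.09. Egfl7 and Pecam1, Tie1 and Tek, and Cldn5 and Emcn lay closer to each other than the larger SD of each pair. In control libraries Tek, Kdr, Tie1, Cdh5, Flt1 and Emcn lay between 4.04 and 4.53, closer together than the SD of any of them. For scale, the keratin gene Krt8 stood at 13.87 in HFD and 14.06 in control libraries.

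The start regions of the 4 receptor genes are shown because these genes form the receptor pairs compared below. Each window runs from 250 bases before to 50 bases after a start listed for the gene (GRCm38.p6), 5′ to 3′ in the gene's direction. That start need not be the outer end of the gene span given below. Capitals mark GGAA or its complement TTCC, the core letters that ETS-family factors, many of them active in endothelium, recognise. The windows are chr5:75978406-75978705 (minus strand) for Kdr, chr5:147725962-147726261 (minus) for Flt1, chr4:94739039-94739338 (plus) for Tek and chr4:118489800-118490099 (minus) for Tie1. The Kdr and Flt1 windows lie wholly inside the gene spans, which end at 75979072 and 147726438. Most of the Tek window lies inside its span, which begins at 94739086. These windows are therefore not purely upstream sequence.
Kdr: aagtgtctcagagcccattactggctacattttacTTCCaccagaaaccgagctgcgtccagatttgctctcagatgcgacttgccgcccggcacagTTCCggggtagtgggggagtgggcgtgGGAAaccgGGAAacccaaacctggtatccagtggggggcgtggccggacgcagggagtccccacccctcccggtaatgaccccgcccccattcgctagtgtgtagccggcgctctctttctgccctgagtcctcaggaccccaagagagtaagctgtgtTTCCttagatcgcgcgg
Flt1: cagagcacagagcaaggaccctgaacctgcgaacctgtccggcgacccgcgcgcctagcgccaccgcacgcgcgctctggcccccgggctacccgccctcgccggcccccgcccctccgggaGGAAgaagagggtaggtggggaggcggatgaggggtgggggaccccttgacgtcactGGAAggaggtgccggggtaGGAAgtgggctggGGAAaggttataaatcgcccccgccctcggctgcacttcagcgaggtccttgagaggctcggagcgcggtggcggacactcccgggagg
Tek: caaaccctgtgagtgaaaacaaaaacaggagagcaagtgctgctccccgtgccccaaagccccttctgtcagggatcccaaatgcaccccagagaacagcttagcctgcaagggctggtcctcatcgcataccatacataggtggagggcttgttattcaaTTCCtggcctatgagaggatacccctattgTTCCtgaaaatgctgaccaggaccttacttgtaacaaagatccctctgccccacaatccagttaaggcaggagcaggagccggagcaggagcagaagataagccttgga
Tie1: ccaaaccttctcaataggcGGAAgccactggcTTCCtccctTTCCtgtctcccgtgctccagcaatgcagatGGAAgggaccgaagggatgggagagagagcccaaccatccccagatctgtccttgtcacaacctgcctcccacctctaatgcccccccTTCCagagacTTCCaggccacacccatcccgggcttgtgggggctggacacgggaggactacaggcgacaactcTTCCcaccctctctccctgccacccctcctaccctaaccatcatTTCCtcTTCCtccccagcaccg
GGAA on either strand matched 5 times in the Kdr window, 4 times in Flt1, 2 times in Tek and 9 times in Tie1. It occurs in 96.0% of all 32851 windows of this length, with a mean of 3.52 matches, and in 8 of the 9 windows held for 7 members, with a mean of 4. The longer CAGGAA, whose matches also count as GGAA, was in 5 of these 9 windows and in 30.6% of all windows, and CCGGAA was in 1 of 9 and in 14.9%. TATAAA was in 1 of the 9, that of Flt1, and in 13.6% of all. A match is a description of the letters only.

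None of the 10 markers was called different between HFD and control libraries by limma with Benjamini-Hochberg adjustment over all 27401 rows tested, at a threshold of 0.05. Among all rows 1 was called higher in HFD (0.00365%) and 2 were called lower (0.0073%). At an unadjusted p under 0.05, also none of the 10 passed, against 6.52% of all rows higher and 4.03% lower. On the deposited scale 2 passed the unadjusted p, Cdh5 and Kdr, both higher in HFD, against 9.25% of all rows. Without ND19, 5 passed it, Pecam1, Cdh5, Kdr, Plvap and Egfl7, all higher in HFD, against 8.27% of all rows, and none passed adjustment. The median difference of the 10 was 0.41 (HFD minus control, log2), beside 0.12 for all rows. It was 0.20 without ND16, 0.26 without HFD23 and 0.75 without ND19, where all rows had 0.18.

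Kdr (chr5:75932827-75979072) encodes VEGFR2, the main signalling receptor for VEGF-A. Its level was 8.38 in HFD22, 8.71 in HFD23, 8.34 in HFD26 and 8.69 in HFD27, against 7.42 in ND15.17.18, 6.62 in ND16, 9.17 in ND19 and 7.34 in ND20. All 4 HFD libraries were above 3 of the controls and below ND19, so the groups overlapped. The difference was 0.89 ± 0.47 (SE; limma adjusted p = 0.53). Without ND19 it was 1.41 ± 0.23 (adjusted p = 0.13), without ND16 it was 0.55, and on the deposited scale 1.74 ± 0.75 (adjusted p = 0.45).

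Flt1 (chr5:147561604-147726438) encodes VEGFR1, which binds VEGF-A tightly and signals weakly. It stood at 7.64, 8.29, 7.51 and 7.72 in HFD22, HFD23, HFD26 and HFD27, against 8.80, 6.07, 8.48 and 7.43 in ND15.17.18, ND16, ND19 and ND20. Controls held both the highest and the lowest value. The difference was 0.09 ± 0.54 (limma adjusted p = 0.96) and turned to -0.07 without HFD23 and -0.45 without ND16, while it was 0.46 without ND15.17.18 and 0.36 without ND19.

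The log2 ratio of Kdr over Flt1, which hardly depends on how a library is scaled, was 0.74, 0.41, 0.83 and 0.98 in HFD22, HFD23, HFD26 and HFD27, against -1.38, 0.55, 0.69 and -0.09 in ND15.17.18, ND16, ND19 and ND20. Before any correction for length, Kdr exceeded Flt1 in all 4 HFD libraries and in 2 of 4 controls. Flt1 has more exon sequence, 13.5 kb against 9.03 kb for Kdr, so this count depends on length. The difference between the groups does not. The mean ratio differed by 0.80 (exact two-sided permutation test over 70 divisions, p = 0.11, adjusted p = 0.34 over 3 ratios), and by 0.36 without ND15.17.18, the library with the lowest ratio.

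Tek (chr4:94739086-94874976) encodes TIE2, the receptor of the angiopoietins. It measured 6.56 in HFD22, 7.08 in HFD23, 6.36 in HFD26 and 6.92 in HFD27, against 6.94 in ND15.17.18, 6.45 in ND16, 7.36 in ND19 and 6.10 in ND20. The groups ran through each other, with a difference of 0.02 ± 0.32 (limma adjusted p = 0.99) that took either sign as single libraries were left out, from -0.19 without ND20 to 0.23 without ND19.

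Tie1 (chr4:118471191-118489849) encodes the related receptor that associates with TIE2 and binds no angiopoietin tightly on its own. Its HFD levels were 7.12, 7.13, 6.92 and 7.06 in HFD22, HFD23, HFD26 and HFD27, and its control levels were 6.47, 5.43, 8.08 and 6.92 in ND15.17.18, ND16, ND19 and ND20. The HFD libraries lay close to each other and inside the control range. The difference was 0.33 ± 0.47 (limma adjusted p = 0.81), 0.78 without ND19 and -0.10 without ND16. The log2 ratio of Tek over Tie1 was -0.56, -0.05, -0.57 and -0.14 in the HFD libraries in the same order, against 0.46, 1.02, -0.73 and -0.83 in the controls, a difference of -0.31 (exact permutation p = 0.54, adjusted p = 0.54). Without single libraries this was -0.15 (ND15.17.18), 0.03 (ND16), -0.55 (ND19) and -0.58 (ND20).

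**Figure D2:**
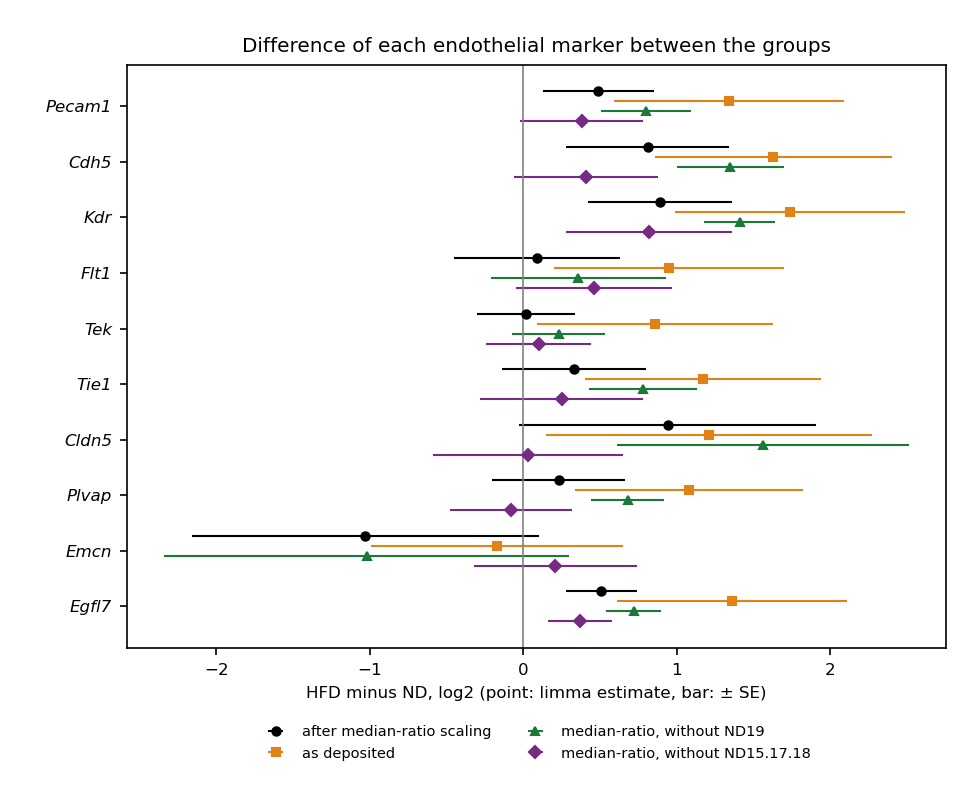
Difference of each endothelial marker, HFD minus ND on the log2 scale, with its SE from limma, after median-ratio scaling, as deposited, without ND19 and without ND15.17.18. Of the 10 points after median-ratio scaling 9 lie above 0 and Emcn lies at -1.03; leaving out ND19 moves Kdr to 1.41 and leaving out ND15.17.18 moves Emcn to 0.21.

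Among the junction genes, Pecam1 (chr11:106654213-106715281) encodes an adhesion molecule also made by leukocytes and platelets. It measured 8.47 in HFD22, 9.41 in HFD23, 8.19 in HFD26 and 8.33 in HFD27, against 7.80 in ND15.17.18, 7.69 in ND16, 9.06 in ND19 and 7.91 in ND20. HFD23 was the highest of the 8, which made Pecam1 the 1 member whose HFD values were not all inside the control range, and ND19 stood above the other 3 controls. The difference was 0.49 ± 0.36 (limma adjusted p = 0.64) and 0.80 ± 0.29 without ND19 (adjusted p = 0.31), and it was 0.22 without HFD23. The library with the highest Pecam1 is the one with Gp1bb at 14.16, and the part of platelet RNA in this value was not tested.

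Cdh5 (chr8:104101613-104144504), the cadherin of endothelial adherens junctions, measured 7.01, 7.32, 7.23 and 6.93 in HFD22, HFD23, HFD26 and HFD27, against 5.12, 5.66, 7.93 and 6.54 in ND15.17.18, ND16, ND19 and ND20. As for Kdr, every HFD library was above 3 controls and below ND19. The Cdh5 value in ND15.17.18 stands for about 10 reads. The difference was 0.81 ± 0.53 (limma adjusted p = 0.60), 1.35 ± 0.35 without ND19 (adjusted p = 0.21) and 0.41 without ND15.17.18. The log2 ratio of Cdh5 over Pecam1 was -1.46, -2.09, -0.96 and -1.40 in HFD libraries, against -2.68, -2.03, -1.14 and -1.36 in controls, and differed by 0.33 (exact permutation p = 0.49, adjusted p = 0.54). This difference was 0.03 without ND15.17.18, 0.15 without HFD26, 0.53 without HFD23 and 0.55 without ND19.

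Cldn5 (chr16:18776847-18778262), the tight junction claudin of endothelium, was the lowest member before any correction for length. It measured 4.02, 3.09, 3.84 and 3.66 in HFD22, HFD23, HFD26 and HFD27, against 0.00, 3.03, 4.57 and 3.25 in ND15.17.18, ND16, ND19 and ND20. These levels stand for about 18, 9, 23 and 16 reads in the HFD libraries and 0, 10, 8 and 17 reads in the controls, so 8 to 23 reads carry every value above 0. Its listing at 0 in ND15.17.18 was the only 0 of any member in any library. The difference of 0.94 ± 0.97 (limma adjusted p = 0.73) was 0.03 without ND15.17.18 and 1.56 without ND19.

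Plvap (chr8:71497753-71511806) measured 8.75, 9.13, 9.04 and 9.11 in HFD22, HFD23, HFD26 and HFD27, against 7.86, 8.23, 10.14 and 8.89 in ND15.17.18, ND16, ND19 and ND20. ND19 was above and ND15.17.18 and ND16 were below every HFD library. The difference was 0.23 ± 0.43 (limma adjusted p = 0.86), 0.68 ± 0.24 without ND19 (adjusted p = 0.30), 0.05 without ND16 and -0.08 without ND15.17.18. Plvap overlaps the protein-coding genes Gtpbp3 and Gm46041, and whether counting used the strand is not given in the sources used here, so reads shared with them cannot be told apart. The same holds for Cdh5, Kdr and Flt1, which overlap the lncRNA genes Gm29682, Gm32727 and Gm35383.

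Emcn (chr3:137341062-137431069) encodes endomucin, a surface sialoglycoprotein found mainly on capillaries and veins. It measured 5.38, 5.24, 5.19 and 5.39 in HFD22, HFD23, HFD26 and HFD27, against 10.05, 4.24, 6.36 and 4.66 in ND15.17.18, ND16, ND19 and ND20. The HFD libraries lay close to each other, and ND15.17.18 stood far above all others, with about 313.1 reads, while the HFD libraries had 44.1 to 61.6 and the other controls 25 to 48.3. The difference was -1.03 ± 1.13 (limma adjusted p = 0.75), and it was 0.21 without ND15.17.18, -1.72 without ND16 and -1.58 without ND20. Emcn made up 42.5% of the summed level of the 10 markers in ND15.17.18 and 1.36% to 2.23% in the other 7 libraries. An overlapping lncRNA, Gm38650, lies at this gene, and its part in the value was not tested.

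Egfl7 (chr2:26581083-26592682) encodes a protein that endothelial cells secrete into the vessel wall. It measured 7.93, 7.96, 7.82 and 7.96 in HFD22, HFD23, HFD26 and HFD27, against 6.96, 7.16, 8.02 and 7.47 in ND15.17.18, ND16, ND19 and ND20. Every HFD library was above 3 controls and just below ND19. The difference was 0.51 ± 0.23 (limma adjusted p = 0.48) and 0.72 ± 0.18 without ND19 (adjusted p = 0.20). An intron of the gene hosts the endothelial microRNA miR-126, whose mature 3p arm in RefSeq (GRCm38.p6, chr2:26591402-26591423, plus strand), with the seed, bases 2 to 8, in capitals, is shown here because it is the other product of this locus.
miR-126a-3p: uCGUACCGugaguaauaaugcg
The row of its gene Mir126a held about 0, 0.9, 0 and 0 reads in the HFD libraries and 0, 1.6, 0 and 2.6 reads in the controls, too few to compare.

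The spread between libraries was wider among controls than among HFD libraries for these genes, which is given as a description with no test. The SD over 4 libraries was larger in control than in HFD libraries for 10 of 10 members, with a median SD of 0.19 in HFD and 1.09 in control libraries and a median ratio, control over HFD, of 5.62. Across all rows the SD was larger in control libraries for 69.3%, with median SDs of 0.42 in HFD and 0.62 in control libraries and a median ratio of 1.43. Among the 13878 rows with mean levels in the members' range, 3.18 to 8.89, the median ratio was 1.44. A larger control SD was not particular to these genes. Among the lists described below, it held for 11 of 11 fibroblast genes, 11 of 11 junction partners, 8 of 8 lymphatic genes and 11 of 12 epithelial genes. Their median ratios were 2.49, 2.13, 2.28 and 1.46. For smooth muscle genes it held for 9 of 10, with a ratio of 2.89, and for leukocyte genes for 12 of 17, with 1.3. The members' ratios ran from 1.15 for Pecam1 and 1.66 for Tek to 11.6 for Tie1 and 26 for Emcn.

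With any 1 library left out, the SD stayed larger in control libraries for 9 or 10 members. Without ND15.17.18 the SD was larger in control libraries for 10 of 10, with a median ratio of 5.93, against 57.9% and 1.17 over all rows. Without ND19 it was larger for 9 of 10, with a ratio of 3.91, beside 1.37 over all rows. On the deposited scale the count was 10 of 10, with a ratio of 6.74, against 78.8% and 3.13 over all rows. Control libraries also differed more in estimated depth and in the share of the 20 highest rows, as given above, and the part of either in the spread was not tested.

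**Figure D3:**
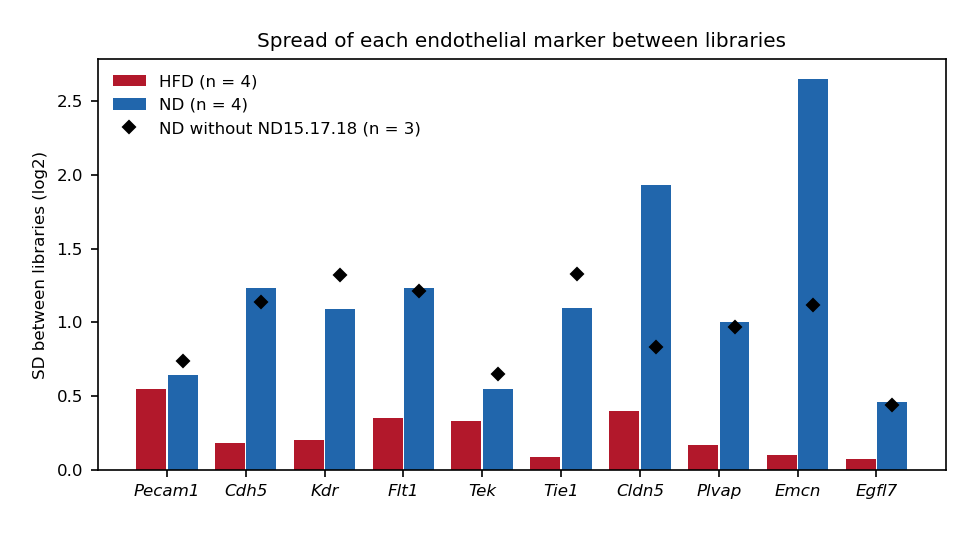
SD over libraries of each endothelial marker on the log2 scale for HFD (n = 4), ND (n = 4) and ND without ND15.17.18 (n = 3). The HFD SDs run from 0.07 for Egfl7 to 0.55 for Pecam1, and the ND SDs from 0.46 for Egfl7 to 2.65 for Emcn, which falls to 1.12 without ND15.17.18.

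Single control libraries held most of the extremes. ND19 was the highest of the 8 for 7 members, Cdh5, Kdr, Tek, Tie1, Cldn5, Plvap and Egfl7, against 14.9% of all rows, and was above every HFD library for 9. ND16 was the lowest for 5, Pecam1, Kdr, Flt1, Tie1 and Emcn, against 9.27% of all rows. ND15.17.18 was the highest for Flt1 and Emcn and the lowest for Cdh5, Cldn5, Plvap and Egfl7, so its members did not move one way. All 4 HFD values lay inside the control range for 9 of 10 members, against 27% of all rows. All 4 HFD libraries were above every control but ND19 for 5 members, Pecam1, Cdh5, Kdr, Tie1 and Egfl7, against 9.25% of all rows. The mean level over the 10 was 7.13, 7.34, 7.04 and 7.18 in HFD22, HFD23, HFD26 and HFD27, against 6.74, 6.06, 7.92 and 6.65 in ND15.17.18, ND16, ND19 and ND20.

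The library pattern of the members was also held by other rows. Over the 13479 rows above 30 in all 8 libraries after rescaling, the centred log2 profile, among rows with a symbol, nearest to the mean of 8 members (without Cldn5 and Emcn, which fell under that level) was that of Sema6d, a semaphorin, at a root mean square distance of 0.14, followed by Mylip at 0.14, Ccne1 at 0.15, Nrp1 at 0.16, Arap3 at 0.16, Ksr2 at 0.17, Col4a2 at 0.20, Col15a1 at 0.20, Mmrn2 at 0.21 and Loxl3 at 0.21. The median distance of a row was 0.60, and the members' own distances ran from 0.26 for Tie1 to 0.61 for Flt1. Nrp1 encodes a co-receptor for VEGF, Mmrn2 a matrix protein of endothelium, and Col4a2 and Col15a1 basement membrane collagens. Of the rows named, only Nrp1 and Mmrn2 are on a gene list examined here, and Sema6d, Mylip and Ccne1 lay nearer than either. Nrp1 stood at 8.52, 8.68, 8.39 and 8.54 in the HFD libraries, against 8.25, 7.62, 9.28 and 8.28 in ND15.17.18, ND16, ND19 and ND20.

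A list of 30 further genes expressed across endothelium had 26 of 30 differences above 0 and a median difference of 0.45 beside 0.12 for all rows, with none called. Of these, 4 were higher and 1 was lower in HFD at an unadjusted p under 0.05, against 6.52% and 4.03% of all rows. The smallest p belonged to Esam, an endothelial adhesion molecule, at 7.74 ± 0.09 in HFD and 7.0 ± 0.47 in control libraries (SD, n = 4 each). Icam2, an adhesion molecule of endothelium, averaged 4.55 ± 1.17 in HFD and 1.70 ± 1.58 in controls, and Cd34, a surface sialomucin, 6.57 ± 0.29 in HFD and 4.87 ± 1.53 in controls. The SD was larger in control libraries for 29 of these 30, with a median ratio of 3.35. In all, 4 of the 30 had all HFD above all control libraries, against 4.76% of all rows, and none had all below, against 3.09%. Without ND19 the number higher at that p was 15 of 30, against 8.27% of all rows, with none lower. The median difference was then 0.81, beside 0.18 for all rows. Without ND16, 2 were higher and 1 was lower, with a median of 0.23. Without HFD22 or HFD23, 2 were higher.

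Genes of vessel subtypes gave no call. For counts at an unadjusted p under 0.05, here and below, all rows gave 6.52% higher and 4.03% lower in HFD. Without ND19, 8.27% of all rows were higher at that p. All 11 capillary genes had positive differences, as did 60.1% of all rows, with a median of 0.85, and the potassium channel subunit gene Kcne3 had the smallest p, with a difference of 1.69 ± 0.55 (limma adjusted p = 0.34). Without ND15.17.18, 9 of 11 were positive and the median was 0.20, and without ND19 the median was 1.28 and 5 were higher at an unadjusted p under 0.05, against 1 with all libraries. Arterial genes had a median difference of 0.32, with 7 of 10 positive and 2 with p under 0.05, both higher in HFD; Sema3g, a semaphorin of arteries, differed by 1.55 ± 0.63. Venous genes had a median of 0.72, with 6 of 8 positive and 2 with p under 0.05, Ackr1, the venular chemokine receptor, at 1.88 ± 0.75, and Lrg1 at 1.87 ± 0.77. Ackr1 rests on about 1.3 to 15.3 reads in HFD libraries and at most 2.7 in controls. With 16 rather than 1 added before taking logs, the difference was 0.33 for Ackr1, 1.2 for Lrg1 and 0.81 for Sema3g. Lymphatic genes had a median of 0.44, with 5 of 8 positive and none under that p; Prox1, the lymphatic regulator, differed by -0.50 ± 0.29, and by 0.35 on the deposited scale, and Flt4, the VEGF-C receptor, by 0.76 ± 0.45. With 1 library left out, the arterial median ran from 0.12 (without HFD27) to 0.60 (without HFD22). At that p, 0 or 1 arterial gene was higher, and 1 was lower without HFD23. The venous median ran from 0.41 (without ND20) to 1.12 (without ND19), and no venous gene was under that p without HFD22, HFD23, ND15.17.18 or ND20. The lymphatic median ran from 0.12 (without ND20) to 0.74 (without ND19), with 2 genes higher at that p without ND19 and 1 lower without ND20.

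The ligands and partners of the receptors were tested too, and none was called. The 8 VEGF and angiopoietin ligand genes had a median difference of 0.09, with 1 under an unadjusted p of 0.05. Vegfc, which is also among the arterial genes, differed by 1.84 ± 0.82 (limma adjusted p = 0.47), Angpt1, the activating ligand of TIE2, by 2.40 ± 1.08, and Vegfb by -0.47 ± 0.23, or 0.38 on the deposited scale. Vegfc rests on at most 37.5 reads in HFD and 9 in control libraries, and Angpt1 on at most 58 and 11. With 16 rather than 1 added before taking logs, Vegfc differed by 0.58 and Angpt1 by 0.73. The 12 co-receptors and effectors had a median of -0.07, with 2 lower in HFD at that p, Plcg1, the phospholipase activated by VEGFR2, at -0.26 ± 0.11, and the adaptor Grb2 at -0.37 ± 0.15, each of which was above 0 on the deposited scale (0.59 and 0.49). The 11 junction partners reported had a median of -0.18, with 2 lower and 1, Esam, higher at that p. The lower ones, which epithelium also uses, were the tight junction scaffold gene Tjp1, at -0.38 ± 0.13, and the plakoglobin gene Jup, at -0.31 ± 0.12, and they were above 0 on the deposited scale (0.47 and 0.54). With 1 library left out, the median ran from -0.03 (without HFD23) to 0.35 (without ND15.17.18) for the ligands, from -0.19 (without ND16) to 0.03 (without ND15.17.18) for the co-receptors and effectors, and from -0.30 (without ND19) to -0.08 (without ND15.17.18) for the junction partners. At that p, 0 to 2 ligands were higher, and 1 ligand was lower without HFD27 and 1 without ND20. Of the effectors, 0 to 2 were lower, and 2 were higher without ND19. Of the junction partners, 1 to 4 were lower, 4 of them without ND19.

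**Figure D4:**
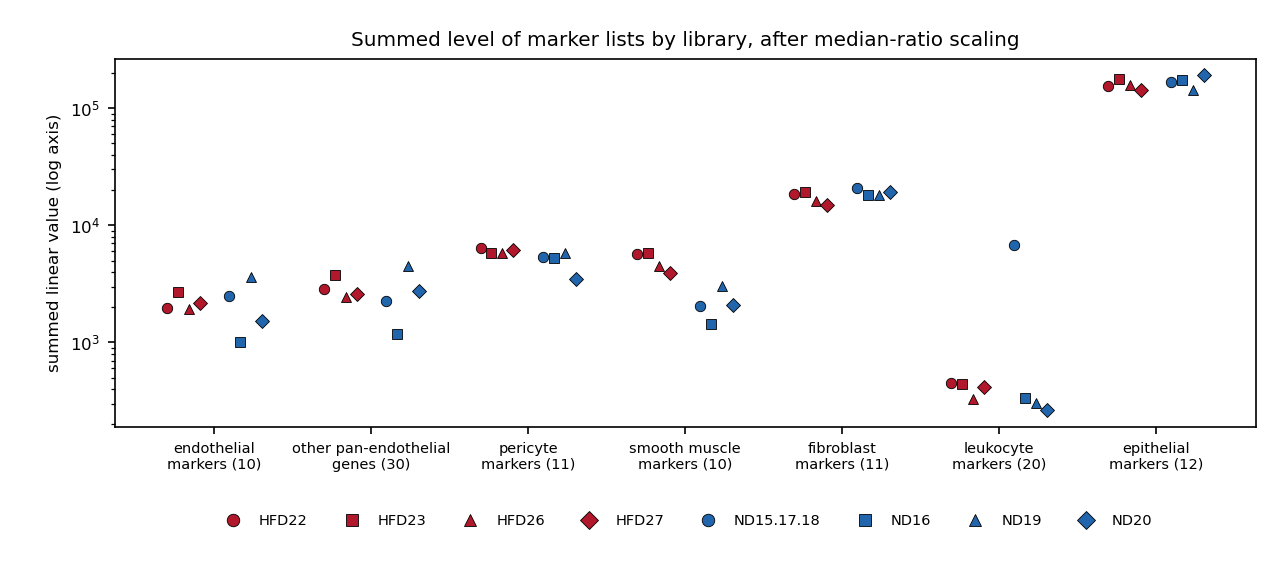
Summed linear level, after median-ratio scaling and on a log axis, of the endothelial markers and of marker lists of other cell types in each library, HFD left of ND. The endothelial sum is 1947 to 2696 in HFD and 1014 to 3637 in ND, and the smooth muscle sum is 3877 to 5806 in HFD and 1423 to 3019 in ND.

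Smooth muscle genes had the largest median difference of the lists examined, with none called after scaling. Of 10 smooth muscle genes, 8 were higher in HFD at an unadjusted p under 0.05, against 6.52% of all rows. All 4 HFD libraries were above all 4 controls for 8 of the 10, against 4.76% of all rows. The median difference was 1.83, beside 0.12 for all rows. Acta2, smooth muscle actin, averaged 9.88 ± 0.17 in HFD and 7.83 ± 0.97 in control libraries (SD, n = 4 each), Myl9, a myosin light chain, 8.43 ± 0.37 in HFD and 6.83 ± 0.60 in controls, and Actg2, the enteric muscle actin, 7.56 ± 0.15 in HFD and 5.76 ± 0.89 in controls. Of 11 pericyte genes, 3 were higher at that p, with a median of 0.63. Rgs5, a regulator of G protein signalling typical of pericytes, averaged 7.94 ± 0.50 in HFD and 6.30 ± 0.62 in controls, with a difference of 1.64 ± 0.36 (limma adjusted p = 0.20), Ndufa4l2 differed by 2.65 ± 0.77, and Des, desmin, which is on both lists, by 2.71 ± 0.72 (adjusted p = 0.27, and 0.019 on the deposited scale). Ndufa4l2 is a low gene, and with 16 rather than 1 added before taking logs its difference was 0.87. With 1 library left out, 7 to 9 smooth muscle genes were higher at that p, against 1219 to 2266 of all 27401 rows. The smooth muscle median then ran from 1.5 (without ND16) to 2.15 (without ND19). The pericyte median ran from 0.41 (without ND16) to 0.90 (without ND19). Whether these lists differ from the endothelial markers in their response was not tested.

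Other cell types that a sort could carry gave these values. Fibroblast genes summed to 14969 to 19276 in HFD and 18114 to 20703 in control libraries, with a median difference of 0.28 over 11 genes and 1 higher at p under 0.05, the proteoglycan Dcn at 0.82 ± 0.34. Leukocyte genes summed to 330 to 449 in HFD, against 6758 in ND15.17.18 and 263 to 336 in the other controls, and in ND15.17.18 Coro1a, named after its values were seen, stood at 12.61. S100a8, a neutrophil marker, was at 0 in all 8 libraries, and 3 of 17 leukocyte genes tested, Cd3e, Ms4a1 and Tyrobp, were higher in HFD at that p, at mean levels of 2.30, 2.98 and 2.09 in HFD and 0.19, 0.41 and 0.30 in controls. Platelet genes summed to 18450 in HFD23 and 97 to 190 in the other HFD libraries, against 91 to 352 in controls, with a median difference of 0.51 over 8 tested and none at that p. Red cell genes summed to 437 to 1563 in HFD and 194 to 1108 in controls, with a median of 0.44 over 6 tested and none at that p. Epithelial genes had a median difference of -0.03 over 12, with Epcam 0.69 ± 0.14 higher and Cdh1, the epithelial cadherin, at -0.42 ± 0.12, or 0.43 on the deposited scale. Without ND16 the fibroblast median was -0.13, and without ND19 it was 0.71 with 4 genes higher and 1 lower at that p. The leukocyte median difference, 0.60 with all libraries, ran from 0.29 (without ND20) to 0.70 (without ND15.17.18). The platelet median ran from 0.31 (without ND15.17.18) to 0.79 (without ND19) and the red cell median from 0.22 (without ND16) to 0.85 (without ND19). The epithelial median ran from -0.08 (without ND15.17.18) to 0.01 (without ND20). The part of any of these cell types in the endothelial values was not tested.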

How the data were processed

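RNA of sorted gastric epithelial cells was measured in 4 HFD and 4 control libraries. Each library has 1 deposited table of log2 values. Because the values have a floor of 0 and their antilogs sum to 36.9 M in every library, the deposited column was read as log2 of values that the authors scaled to a common total; a 0 was kept as 0. Fits named as on the deposited scale used log2(value + 1) of these linear values with no rescaling. The submitters' processing notes name mm10 and bedtools 2.17.0, with no role; the aligner, annotation and normalization are not given in the sources used. Of 38920 rows, 32891 matched RefSeq genes (GRCm38.p6).

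Libraries were rescaled by the median ratio over 11115 rows above 30 in all 8 before rescaling. Rows reaching a linear value of 1 in 4 or more libraries, 27401 in number, went into limma 3.58.1 under R 4.3.3, with its trend and robust settings, on log2(value + 1). Group was the sole term, and Benjamini-Hochberg adjustment ran over all of them (threshold 0.05). The script was tested on simulated data. Fold changes on this scale understate those of low genes. Ratios used an exact two-sided permutation test.

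Whole reads could not be recovered, since 19.3% to 34.7% of the values under 2000 steps were a whole number of steps within 0.01. A count model and counting intervals were therefore not used. Read numbers are the value divided by the step. A linear value under 1 appears as 0, so in HFD26, HFD27, ND15.17.18 and ND20, whose steps are 0.802, 0.966, 0.692 and 0.584, a lone read is listed at 0. Lengths per kilobase are unions of GENCODE M21 exons.

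Members and gene lists were chosen with earlier results of these data known, and 1 listed gene is not reported here. From each list the text names up to 3 genes with the smallest unadjusted p, and as likest profiles the 10 nearest rows above 30 in all 8 libraries after rescaling. Sequences are RefSeq's. Other scalings, pseudocounts, filters and moderation, and leaving out each library, were tried. The labels give no batch or date.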

Additional observations from a re-analysis of the deposited data

Results flagged for a closer look

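Of 136 groups of 4 libraries examined, over the members, the 3 ratios and the genes named by rule, Coro1a and Krt8, 12 held 1 library far from its group by Dixon's criterion at the 95% level, and chance alone flags about 1 group in 20. Among the endothelial markers this was Pecam1 in ND19, at 9.06 against 7.69 to 7.91 in the other controls. Myl9 was at 7.73 in ND19 against 6.49 to 6.59 in the other controls, and Sema6d at 7.28 against 5.49 to 5.77. In ND15.17.18, Coro1a was at 12.61 against 5.72 to 6.58 in the other controls, and Vegfc was at 0.00 against 2.46 to 2.75. In ND16, Ackr1 was at 1.54, Cd3e at 0.78, Ms4a1 at 1.66 and Tyrobp at 1.21, while all other controls were at 0. Where the others are tied at 0, the criterion flags any value above 0, so these flags were fixed in advance. The count of 12 can therefore not be set against the rate of 1 group in 20. In HFD23, Ephb4 was at 11.42 against 10.49 to 10.64 in the other HFD libraries, and Gp1bb was at 14.16 against 4.89 to 5.2. In HFD22, Actg2 was at 7.78 against 7.47 to 7.50.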

How the results depend on the processing

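No member was called under any of the 15 alternatives, and the SD was larger in control libraries for at least 9 members under each. The number of rows called, 3, was 16 on the deposited scale, 0 with no filter, 1 without the trend and robust options, and 2 to 5 with 1 library left out, the highest without ND16. The median difference of the members, 0.41, was 1.19 on the deposited scale, where the median of all rows was 0.90, and 0.20 to 0.75 with 1 library left out. The Tek over Tie1 difference ran from -0.58 to 0.03 with 1 library left out, positive only without ND16. Quantile normalization gave Flt1 -0.09 and Tek -0.16. With 1 library left out, the difference ran from -0.45 to 0.46 for Flt1 (0.36 without ND19), -0.19 to 0.23 for Tek, -0.10 to 0.78 for Tie1, -0.08 to 0.68 for Plvap, -1.72 to 0.21 for Emcn and -0.07 to 0.49 for Nrp1, each taking both signs. On the deposited scale these genes, below 0 after scaling, were above it, while Emcn stayed below at -0.17: Bmx 0.27, Prox1 0.35, Vegfb 0.38, Plcg1 0.59, Grb2 0.49, Shb 0.31, Tjp1 0.47, Jup 0.54, Slc4a1 0.04 and Cdh1 0.43, and Des was called at 3.54. The cause was not tested. No paired analysis was possible because the groups share no replicate number. ND19 is the shallowest library, at 16.4 M reads by the estimate, and Cldn5 rests on at most 23 reads in any library. In ND15.17.18, whose 20 highest rows took 85.7% of the total, most members rest on fewer reads than in ND19. There Cdh5 stood for about 10 reads, Tie1 for 26, Tek for 36 and Egfl7 for 36.6, against 85, 94.6, 57 and 90.9 in ND19. Flt1 and Emcn went the other way, at 131.5 and 313.1 reads in ND15.17.18, against 125.2 and 28.4 in ND19.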
